A study of Mus musculus with 15 samples.

Results

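Collagen chain genes were taken as every gene whose symbol in the array's probe annotation has the form Col, a number, the letter a and a number, and they were kept where at least 1 probe was detected (a detection p under 0.05) on 3 or more of the 15 arrays. This left 27 of the 41 annotated collagen genes, read by 38 of 91 probes, among 10838 genes with a tested probe. The kidneys came from male C57BL/6 mice that were weaned at 3 weeks and fed the AIN-93G diet. Controls drank freely for 1 week (CON 1W, 4 arrays, killed at 4 weeks of age) or for 4 weeks (CON 4W, 3 arrays, killed at 7 weeks of age), and water-restricted mice were given their bottle for 15 min each day, over 1 week (RES 1W, 4 arrays, 4 weeks of age) or 4 weeks (RES 4W, 4 arrays, 7 weeks of age). Restricted mice stayed without water from their last daily bottle until they were killed. The paper reports that they also ate less at the start, and reached normal food intake after the first week. Less water and less food therefore cannot be told apart, above all in RES 1W. Whole kidneys were used, so fewer cells of a type and less RNA per cell cannot be told apart. The labels do not say how the animals were chosen for the arrays, and a p-value measures the spread between these arrays only.

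Collagens are triple helices of 3 chains, and each chain has a gene of its own. Fibrillar chains (collagens I, II, III, V, XI, XXIV and XXVII) pack into the banded fibres of connective tissue, collagen IV chains form the sheet-like network of basement membranes under tubules, capillaries and podocytes, and collagen VI chains form beaded microfibrils. Collagens XV and XVIII, the multiplexins, sit at the basement membrane zone, and the FACIT chains (collagens IX, XIV, XVI and others) decorate the surface of fibrils. In the kidney the collagen IV trimer made of Col4a1 and Col4a2 chains is found in nearly every basement membrane, whereas the trimer of Col4a3, Col4a4 and Col4a5 belongs to the mature glomerular basement membrane and to some tubules.

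Between 15295 and 17433 probes were detected per array. Of the 15 arrays, 14 correlated best with an array of their own group. The array labelled RES 4W replicate 1 correlated best with CON 4W replicate 3, with a mean Pearson correlation over the tested probes of 0.988 with CON 4W and 0.978 with the other RES 4W arrays. The RES 4W comparison was therefore made with and without it. That array was singled out by its likeness to the controls it is compared with. Leaving it out thus favours larger differences and smaller p-values, and the values without it are a description only. Levels below are log2 values after background correction and quantile normalization. The lowest level at which a probe counted as detected lay between 4.76 and 4.98, depending on the array.

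Of the 27 genes, 15 were read from a probe detected on all 15 arrays. These were Col4a1 to Col4a5, Col5a1, Col6a1, Col8a1, Col14a1, Col15a1, Col16a1, Col18a1, Col23a1, Col26a1 and Col27a1. Another 4 were read from a probe detected on 11 or 13 arrays (Col1a1, Col6a2, Col7a1 and Col11a2), and 8 from a probe detected on 3 to 7 arrays (Col1a2, Col5a3, Col9a1, Col9a2, Col11a1, Col13a1, Col17a1 and Col25a1). The remaining 14 annotated genes had no tested probe, and 11 of them were detected on 0 arrays by any probe. Col3a1, the chain of fibrillar collagen III, had 2 probes and Col5a2, a chain of collagen V, had 5, and none of these was detected on any array. The collagen VI chain Col6a3 has no probe under its name in this annotation and was not analysed here. A probe near the detection floor has little room to show a decrease. Where no array of a group detected a probe, only a bound on the fold is given, with each dim array set at its lowest detected level or at the probe's own level where that is higher, and no fold where that bound is under 1.

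With free water, collagen chain transcripts were lower at 7 weeks than at 4 weeks of age. Of the 27 genes, 10 fell (adjusted p under 0.05, limma), against 2.06% of all genes, and 0 rose, against 1.37% of all genes. At an unadjusted p under 0.05 the limma counts were 12 lower and 1 higher, against 9.64% and 7.6% of all genes. The median log2 fold change of the 27 genes was -0.29, and that of all genes was 0.00. The groups did not overlap in 11 collagen genes, all lower in CON 4W, against 9.85% of all genes that were lower without overlap and 8.34% that were higher. Of the basement membrane chains 4 of 5 fell, of the beaded chains 2 of 2, of the fibrillar chains 2 of 7, of the multiplexins 1 of 2, of the FACIT chains 0 of 4, of the transmembrane chains 0 of 4 and of the remaining chains (Col7a1, Col8a1 and Col26a1) 1 of 3. Among the 15 genes detected on every array 8 fell, and among the 12 dimmer ones 2 fell. All 5 basement membrane chains were detected on every array, whereas most fibrillar and most transmembrane chains were dimmer. Class and detection therefore cannot be told apart in these counts.

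Col4a1, a chain of the widespread collagen IV network, was at a log2 level of 11.46, 11.67, 11.62 and 11.57 in the CON 1W arrays and at 10.70, 10.47 and 10.65 in the CON 4W arrays. All CON 4W arrays lay below all CON 1W arrays, and Col4a1 fell by 0.97 in log2 level (SE 0.10, adjusted p = 4.9e-05). Its partner Col4a2 was at 10.29, 10.61, 10.78 and 10.37 in CON 1W and at 9.55, 9.38 and 9.55 in CON 4W, again with no overlap. Col4a2 fell by 1.02 (SE 0.13, adjusted p = 0.00023). Both calls held with each array left out in turn. The 2 genes lie head to head on chromosome 8: in RefSeq (GRCm38.p6) Col4a1 starts at 11312826 on the minus strand and Col4a2 at 11312805 on the plus strand, and their 300-base promoter windows share 78 bases. The within-array difference between Col4a1 and Col4a2 changed by 0.05 (SE 0.08) between these groups (exact permutation p = 0.80, two-sided).

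Of the chains of the glomerular trimer, Col4a3 and Col4a5 fell with age and Col4a4 was not called. The within-array differences between these 3 chains gave exact permutation p-values of 0.11 to 0.26 (two-sided), so unequal changes were not shown. Col4a3 was at 8.98, 9.15, 9.23 and 9.21 in CON 1W and at 8.30, 8.59 and 8.63 in CON 4W, without overlap. It fell by 0.64 (SE 0.12, adjusted p = 0.0097), and without CON 4W replicate 1 the adjusted p was 0.0502. Col4a5, the X-linked chain, was at 7.38, 7.73, 7.74 and 7.49 in CON 1W and at 6.62, 6.35 and 7.13 in CON 4W. It fell by 0.88 (SE 0.18, adjusted p = 0.013), although with CON 4W replicate 2 left out its adjusted p was 0.083, and its second probe fell by 0.67 (adjusted p = 0.031). Col4a4 was at 9.77, 9.75, 9.49 and 9.39 in CON 1W and at 9.54, 9.22 and 9.16 in CON 4W. These groups overlapped, and the change in log2 level was -0.29 (SE 0.13, adjusted p = 0.29), with -0.15 in its second probe, while the third was detected on no CON 4W array.

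Among fibrillar chains, Col5a1, the chain of collagen V that helps to start fibrils, was at 7.50, 7.64, 7.60 and 7.61 in CON 1W and at 6.75, 6.64 and 6.70 in CON 4W. The groups did not overlap, and Col5a1 fell by 0.89 (SE 0.10, adjusted p = 0.00011), a call kept under every alternative and with each array left out. Col1a1, the main chain of collagen I, was at 5.66, 6.10, 6.66 and 5.75 in CON 1W and at 5.08, 4.80 and 4.77 in CON 4W, where 1 of 3 arrays detected it. It fell by 1.16 (SE 0.19, adjusted p = 0.0030). Col1a2, its partner, was at 4.82, 4.43, 4.46 and 4.73 in CON 1W and at 4.60, 4.49 and 4.92 in CON 4W, all near the detection floor. Its change of 0.06 in log2 level (SE 0.14, adjusted p = 0.87) comes from a probe that 3 of the 15 arrays detected. The other fibrillar genes (Col5a3, Col11a1, Col11a2 and Col27a1) had log2 fold changes between -0.08 and 0.39, and none was called.

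Col6a1, a chain of beaded collagen VI, was at 7.60, 7.98, 8.15 and 8.11 in CON 1W and at 7.16, 6.59 and 6.88 in CON 4W. No CON 4W array reached a CON 1W array, and Col6a1 fell by 1.09 (SE 0.16, adjusted p = 0.0010), with a fall of 1.04 in its second probe (adjusted p = 0.0012). Col6a2, its partner, was at 5.16, 5.18, 5.26 and 5.42 in CON 1W and at 4.51, 4.79 and 4.89 in CON 4W, where no array detected it. The CON 4W level was lower by at least 1.29-fold (adjusted p = 0.048). That call was kept with 3 of 15 arrays left out in turn, and its other probe gave -0.06. Col15a1, a multiplexin, was at 7.10, 7.29, 7.44 and 7.39 in CON 1W and at 6.59, 6.51 and 6.68 in CON 4W. The groups did not overlap, and it fell by 0.71 (SE 0.13, adjusted p = 0.0060). Its relative Col18a1, the source of endostatin, changed by -0.22 in log2 level (SE 0.12, adjusted p = 0.38).

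Col26a1, a small collagen first described in testis and ovary, was at 7.14, 7.06, 7.05 and 7.11 in CON 1W and at 6.31, 6.91 and 6.50 in CON 4W. It fell by 0.52 (SE 0.13, adjusted p = 0.045), a call kept with 5 of 15 arrays left out in turn, and its other probe gave 0.08. Col14a1, a FACIT chain, was at 7.24, 7.74, 7.61 and 7.87 in CON 1W and at 7.11, 7.01 and 7.17 in CON 4W. Its groups did not overlap, but the log2 fold change of -0.52 (SE 0.15) had an adjusted p of 0.080. Col7a1, Col8a1, Col9a1, Col16a1, Col23a1 and Col25a1 had log2 fold changes between -0.31 and 0.37, and none was called. Col9a2, Col13a1 and Col17a1 were detected on no CON 4W array and were not called.

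**Figure D1:**
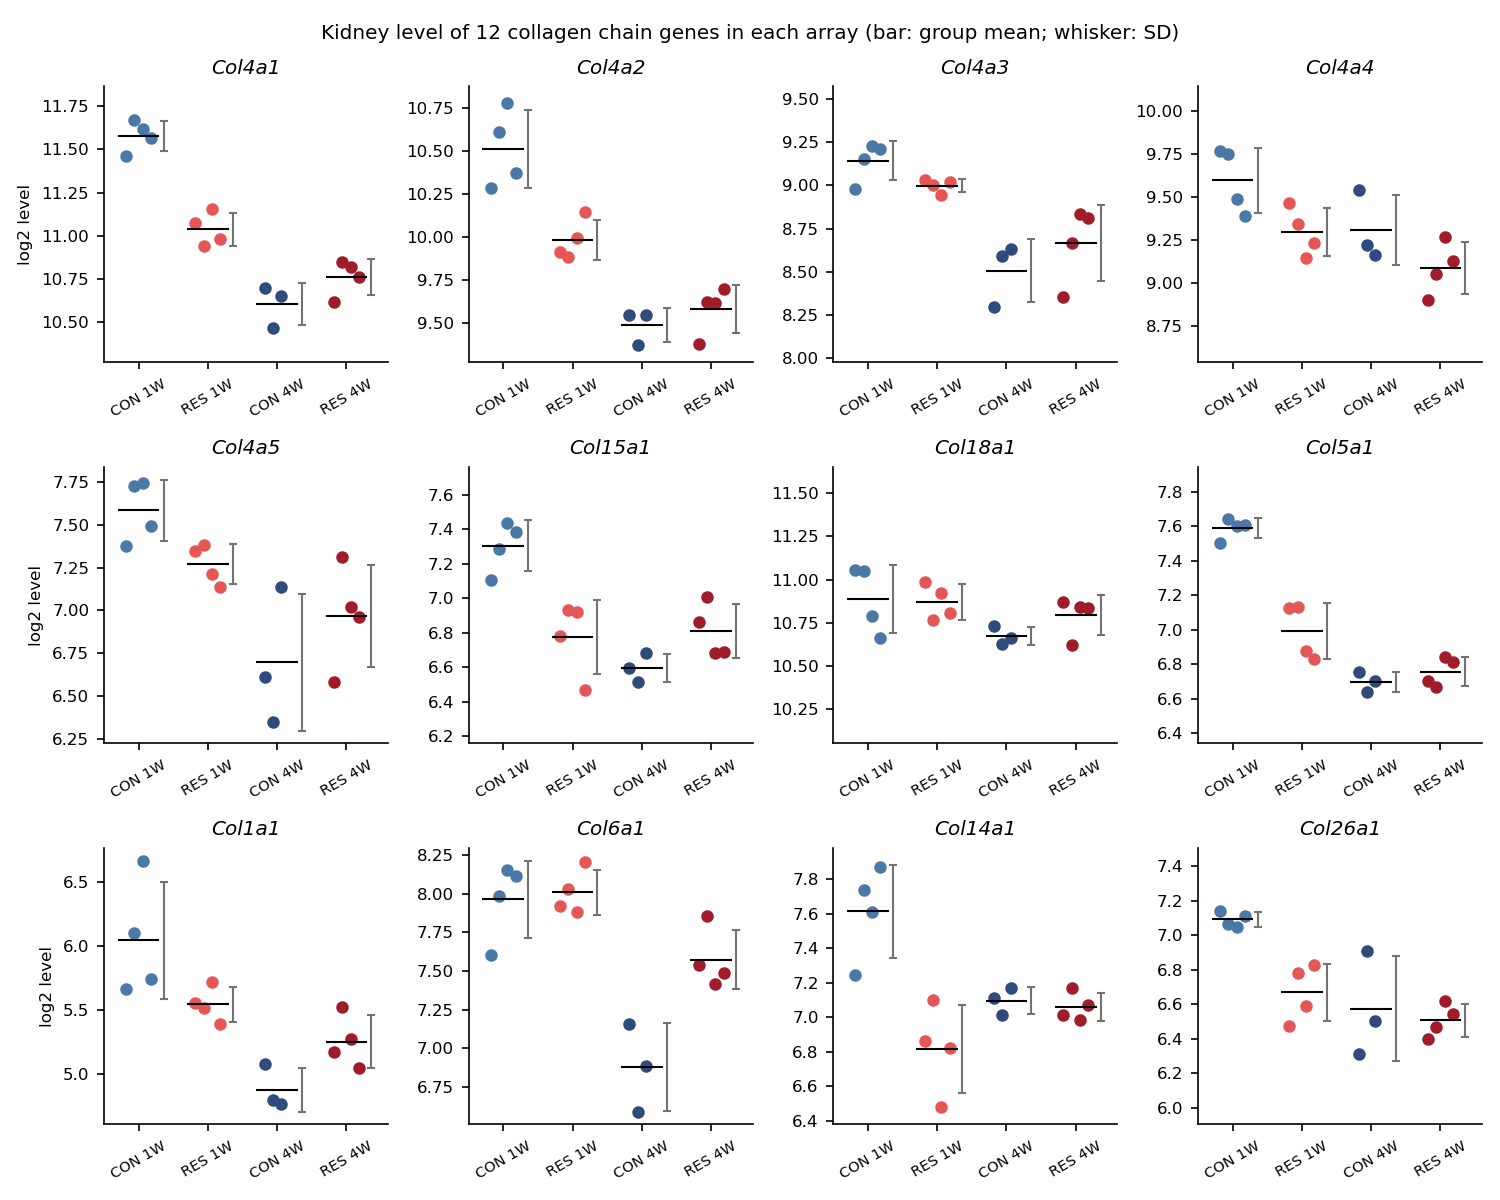
Log2 level (vertical axis) of 12 collagen chain genes in each of the 15 arrays, by group (horizontal axis). Points are arrays, black bars are group means and whiskers are the SD. In Col4a1, Col4a2, Col5a1 and Col15a1 all RES 1W and all CON 4W arrays lie below all CON 1W arrays, as they do in Col14a1 and Col26a1, whereas in Col6a1 the RES 1W arrays (7.88 to 8.21) overlap with the CON 1W arrays (7.60 to 8.15).

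Promoters are shown for 3 of the genes that fell with age, from 3 classes of chain: Col5a1 (log2 fold changes of -0.89 with age and -0.60 in RES 1W), Col15a1 (-0.71 and -0.53) and Col6a1 (-1.09 and 0.05). The 250 bases before the RefSeq start site (GRCm38.p6) are given for Col5a1 (chr2:27886175-27886424, plus strand), for Col15a1 (chr4:47207762-47208011, plus strand), and for Col6a1 (chr10:76726045-76726294, minus strand). Capitals mark a GC box (GGGCGG on either strand) or a CCAAT box.
Col5a1: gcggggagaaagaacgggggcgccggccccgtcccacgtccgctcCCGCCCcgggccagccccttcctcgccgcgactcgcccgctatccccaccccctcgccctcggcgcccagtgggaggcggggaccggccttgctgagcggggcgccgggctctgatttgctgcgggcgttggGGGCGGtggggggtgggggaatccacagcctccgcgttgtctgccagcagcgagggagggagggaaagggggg
Col15a1: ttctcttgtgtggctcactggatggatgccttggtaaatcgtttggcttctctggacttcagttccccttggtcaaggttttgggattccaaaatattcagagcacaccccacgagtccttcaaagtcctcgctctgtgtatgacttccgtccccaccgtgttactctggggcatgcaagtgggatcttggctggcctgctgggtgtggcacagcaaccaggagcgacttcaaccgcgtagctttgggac
Col6a1: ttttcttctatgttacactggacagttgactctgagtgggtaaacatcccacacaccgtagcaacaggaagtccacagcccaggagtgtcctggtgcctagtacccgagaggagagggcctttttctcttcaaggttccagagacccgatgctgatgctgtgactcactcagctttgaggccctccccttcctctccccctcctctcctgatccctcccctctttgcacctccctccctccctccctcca
Col5a1 held 2 GC boxes and 0 CCAAT boxes in this stretch, and Col15a1 and Col6a1 held 0 of either. In windows of 300 bases, the GC content was 75% for Col5a1, 52.3% for Col15a1 and 57.3% for Col6a1, against 74% for Col4a1 and 73.7% for Col4a2. Of the 26 windows that RefSeq gives for 23 of the collagen genes, 18 held a GC box and 12 a CCAAT box, and over all 32851 promoter windows the shares were 35.7% and 37.4%. A GC box on the other strand (CCGCCC) can share its last 2 letters with a CCAAT box. A match is a description of the letters only.

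After 1 week of water restriction, 5 collagen chain genes were lower than in controls of the same age. The limma test called 5 of 27 genes lower in RES 1W, against 1.61% of all genes, and 0 higher, against 1.79% of all genes. At an unadjusted p under 0.05 the limma counts were 9 lower and 1 higher, against 8.09% and 7.92% of all genes. The median log2 fold change of the 27 genes was -0.14, and that of all genes was 0.00. All 5 calls came from the 15 genes detected on every array, and the groups did not overlap in 6 genes with lower and 1 with higher levels (5.51% and 5.79% of all genes). This comparison and that of the ages use the same CON 1W arrays, so a high or low CON 1W value enters both, and the values of each are given side by side without a test of their likeness.

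Col14a1, whose chain sits on the surface of collagen fibrils, was at 6.86, 7.10, 6.48 and 6.82 in RES 1W, below all of its CON 1W arrays. It fell by 0.80 (SE 0.14, adjusted p = 0.0041) and its second probe by 0.66 (SE 0.17, adjusted p = 0.046). The second probe's groups overlapped (5.48 to 6.05 in RES 1W and 5.96 to 6.65 in CON 1W), and its call was kept with only 4 of 15 arrays left out in turn. Col5a1 was at 7.13, 7.14, 6.88 and 6.83 in RES 1W, also below every CON 1W array, and fell by 0.60 (SE 0.09, adjusted p = 0.0021). Col4a1 was at 11.08, 10.94, 11.15 and 10.98 in RES 1W and fell by 0.54 (SE 0.09, adjusted p = 0.0040), 1.46-fold. On the brightest probe of each of these 3 genes the groups did not overlap, and the calls held with each array left out in turn. Col4a2 was at 9.91, 9.89, 9.99 and 10.14 in RES 1W and fell by 0.53 (SE 0.12, adjusted p = 0.021), and Col15a1 was at 6.78, 6.93, 6.92 and 6.47 and fell by 0.53 (SE 0.12, adjusted p = 0.024). These groups did not overlap with CON 1W either, but each of the latter 2 calls held with only 10 of 15 arrays left out in turn, with adjusted p-values of up to 0.080 for Col4a2 and 0.090 for Col15a1.

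The other collagen IV chains were not called after 1 week. Col4a3 was at 9.03, 9.00, 8.94 and 9.02 in RES 1W, overlapping with CON 1W, and changed by -0.14 in log2 level (SE 0.12, adjusted p = 0.66). Col4a4 was at 9.46, 9.34, 9.14 and 9.24 (log2 fold change -0.30, SE 0.12, adjusted p = 0.26), and Col4a5 at 7.35, 7.38, 7.21 and 7.13 (log2 fold change -0.31, SE 0.17, adjusted p = 0.43). Col6a1 was at 7.92, 8.03, 7.88 and 8.21, spread over the CON 1W values (log2 fold change 0.05, SE 0.15, adjusted p = 0.94), and Col6a2 at 5.07, 4.96, 5.19 and 5.12 (log2 fold change -0.17, adjusted p = 0.63). Col1a1 was at 5.55, 5.51, 5.72 and 5.39, with 1 RES 1W array above the lowest CON 1W array. The change in log2 level was -0.50 (SE 0.18, adjusted p = 0.18). Col1a2 was at 4.78, 4.42, 4.74 and 4.89 (log2 fold change 0.10, adjusted p = 0.82).

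Col8a1, a short-chain collagen of vessel walls and endothelium, was the only one of the 27 genes whose RES 1W arrays all lay above its CON 1W arrays. It was at 6.56, 6.35, 6.61 and 6.43 in RES 1W and at 6.08, 5.97, 5.47 and 6.12 in CON 1W. The log2 fold change was 0.58 (SE 0.20), with an adjusted p of 0.15, or 0.020 where RES 4W replicate 1 was left out and the shared estimate of the spread became smaller. Col26a1 was at 6.47, 6.78, 6.59 and 6.83 in RES 1W, below every CON 1W array (log2 fold change -0.42, SE 0.12, adjusted p = 0.079). Col9a2 was detected on no CON 1W array and was not called. The other chains (Col5a3, Col7a1, Col9a1, Col11a1, Col11a2, Col13a1, Col16a1, Col17a1, Col18a1, Col23a1, Col25a1 and Col27a1) had log2 fold changes between -0.37, in Col16a1, and 0.31, in Col23a1, and none was called.

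**Figure D2:**
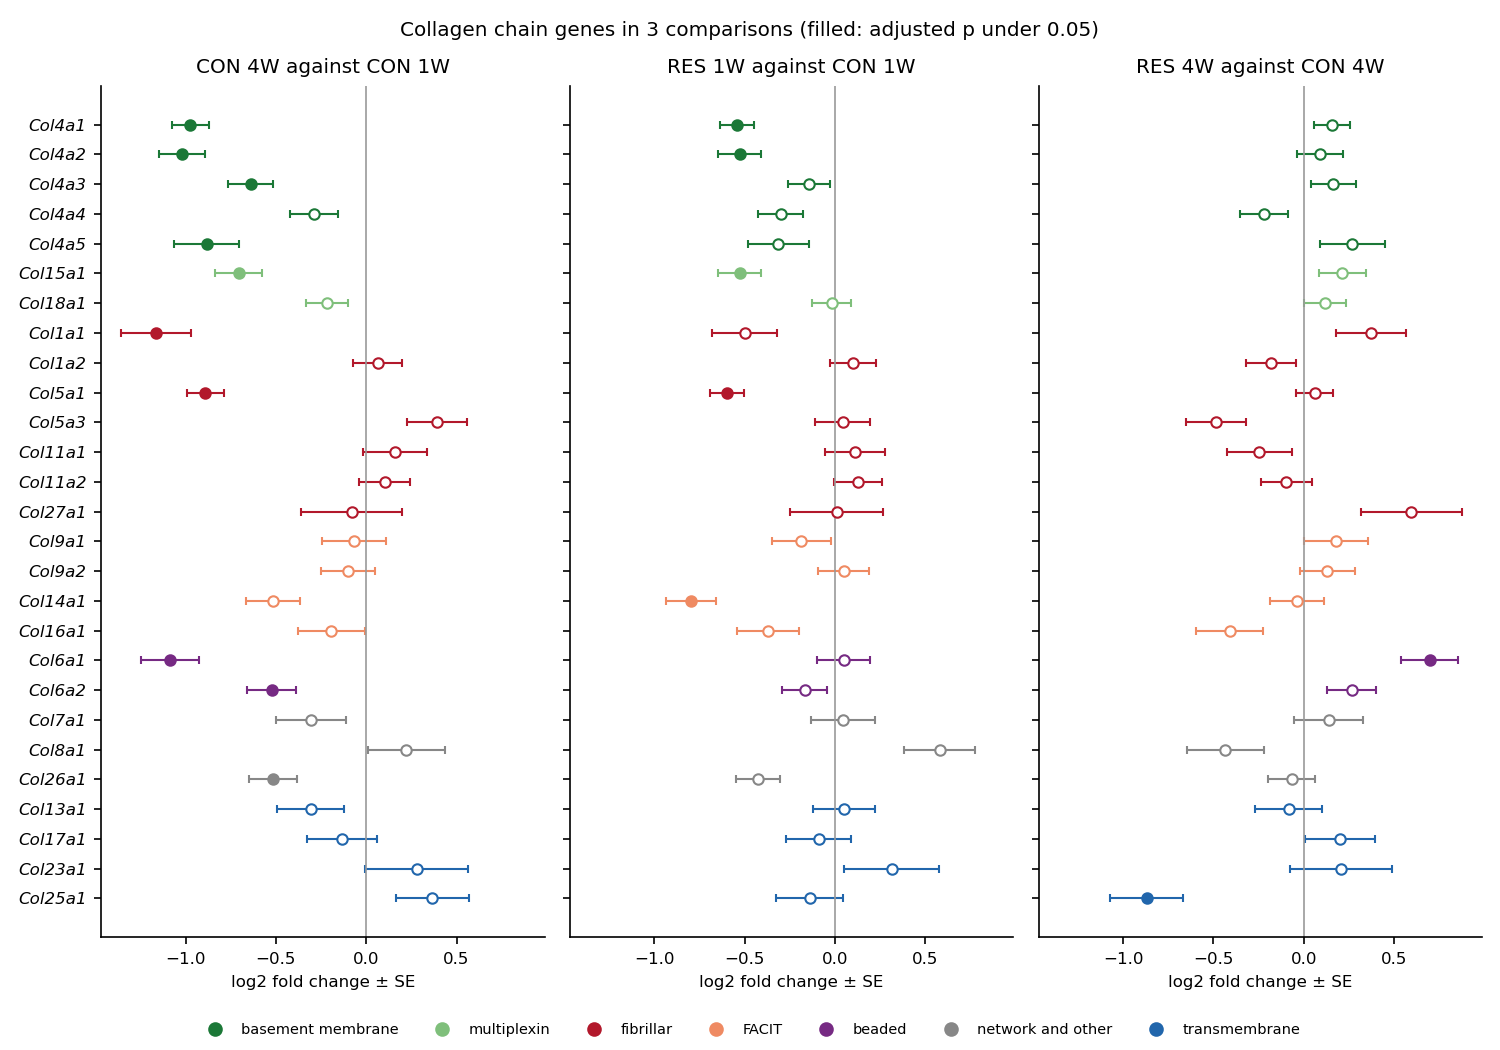
Log2 fold change with its SE (horizontal axis) of the 27 collagen chain genes (vertical axis, ordered by class) for the ages (CON 4W against CON 1W) and for restriction at each age (RES 1W against CON 1W, then RES 4W against CON 4W). Filled points have an adjusted p under 0.05. A point against a group in which no array detected the gene is a fitted value and no size. There are 10 filled points in the first panel and 5 in the second, all below 0, and 1 on each side of 0 in the third.

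After 4 weeks of restriction the collagen chain genes showed no shared direction. Of the 27 genes 1 was lower in RES 4W than in CON 4W, against 3.15% of all genes, and 1 was higher, against 2.68%, shares close to those backgrounds. At an unadjusted p under 0.05 the limma counts were 3 lower and 2 higher, against 12.7% and 10.6% of all genes, or 4 lower and 5 higher without RES 4W replicate 1, against 17.7% and 15.4%. The median log2 fold change was 0.12, and that of all genes was -0.02. Without RES 4W replicate 1, 3 genes were lower and 2 higher, against 11.8% and 9.71% of all genes, and the median was 0.09. The groups did not overlap in 3 genes with lower and 2 with higher levels (8.41% and 6.89% of all genes), and without RES 4W replicate 1 in 4 lower and 7 higher (21.1% and 18.4%). This comparison shares its CON 4W arrays with that of the ages.

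The gene called higher was Col6a1. It was at 7.54, 7.85, 7.41 and 7.49 in RES 4W and at 7.16, 6.59 and 6.88 in CON 4W, without overlap. Col6a1 rose by 0.70 (SE 0.16, adjusted p = 0.024), and by 0.71 (adjusted p = 0.0073) without RES 4W replicate 1, although the call held with only 10 of 15 arrays left out in turn. Its second probe also had groups that did not overlap, and changed by 0.49 in log2 level (SE 0.16, adjusted p = 0.068), or 0.52 (adjusted p = 0.033) without that array. Col6a2 was at 5.14, 4.74, 4.83 and 5.27 in RES 4W, where 3 of 4 arrays detected it. Against the CON 4W arrays, none of which detected it, the bound on the fold was 1.08 (adjusted p = 0.23), or 1.05 without replicate 1 (adjusted p = 0.29), and it was not called.

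The gene called lower was Col25a1, a transmembrane collagen known from neurons and brain plaques. It was at 4.88, 5.55 and 5.57 in CON 4W and at 4.58, 4.36, 4.39 and 4.52 in RES 4W, where no array detected it. It was at least 1.43-fold lower in RES 4W (adjusted p = 0.025), and at least 1.48-fold lower without RES 4W replicate 1 (adjusted p = 0.0068). At 4 weeks of age 2 of the 4 CON 1W arrays (5.29 and 5.38) and 1 RES 1W array detected it, so its level is near the floor in most groups. The RES 4W call held with only 10 of 15 arrays left out in turn. Other annotated probes of Col25a1 were detected on 0 or 1 of the 15 arrays, and on no CON 4W array.

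The collagen IV chains were read in all RES 4W arrays. Col4a1 was at 10.62, 10.85, 10.82 and 10.76 (log2 fold change 0.16, SE 0.10, adjusted p = 0.35), and without replicate 1 at 0.20 (adjusted p = 0.16). Col4a2 was at 9.38, 9.63, 9.62 and 9.70 (log2 fold change 0.09, SE 0.13, adjusted p = 0.71), or 0.16 without replicate 1 (adjusted p = 0.41). In both genes replicate 1 was the lowest RES 4W array, and RES 4W overlapped with CON 4W. Col4a3 was at 8.36, 8.67, 8.83 and 8.81 (log2 fold change 0.16, adjusted p = 0.44, and 0.27 with an adjusted p of 0.092 without replicate 1). Col4a5 was at 6.58, 7.31, 7.02 and 6.96 (log2 fold change 0.27, adjusted p = 0.37, and 0.40 with an adjusted p of 0.11 without replicate 1). Its second probe, detected on every array, went the other way, with a log2 fold change of -0.28 (adjusted p = 0.28), or -0.30 (adjusted p = 0.22) without replicate 1, and was not called either.

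Col4a4 depended on the probe. Its brightest probe was at 8.90, 9.05, 9.27 and 9.13 in RES 4W, overlapping with CON 4W, and changed by -0.22 in log2 level (SE 0.13, adjusted p = 0.32), or -0.16 (adjusted p = 0.44) without replicate 1. Its second probe, also detected on every array, was at 7.57, 7.16 and 7.33 in CON 4W and at 6.67, 6.64, 6.83 and 6.86 in RES 4W. These did not overlap, and the second probe fell by 0.60 (SE 0.13, adjusted p = 0.020), 1.52-fold, or by 0.58 (adjusted p = 0.0063) without replicate 1. The same probe had lain below CON 1W in all RES 1W arrays (7.25, 6.81, 7.10 and 7.16 against 7.71, 7.47, 7.44 and 7.39), and changed by -0.42 in log2 level (SE 0.12, adjusted p = 0.074). The third probe was detected on no 7-week array. The dimmer probe of Col26a1 likewise fell in RES 4W by 0.73 (SE 0.20, adjusted p = 0.042), or by 0.72 (adjusted p = 0.026) without replicate 1, while its brightest probe gave -0.07 (adjusted p = 0.79) and -0.03 (adjusted p = 0.91). That call of the dimmer probe was kept with only 4 of 15 arrays left out in turn.

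Of the genes that were lower in RES 1W, Col5a1, Col14a1 and Col15a1 were not called in RES 4W, nor were the collagen I chains. Col5a1 was at 6.70, 6.67, 6.84 and 6.82 (log2 fold change 0.06, SE 0.10, adjusted p = 0.76, and 0.08 with an adjusted p of 0.65 without replicate 1). Col14a1 was at 7.01, 7.17, 6.98 and 7.07 (log2 fold change -0.04, adjusted p = 0.91, and -0.02 with an adjusted p of 0.94 without replicate 1). Col15a1 was at 6.86, 7.01, 6.68 and 6.69, just above the CON 4W arrays (log2 fold change 0.21, SE 0.13, adjusted p = 0.32, and 0.20 without replicate 1). Col1a1 was at 5.17, 5.53, 5.27 and 5.05 (log2 fold change 0.37, SE 0.19, adjusted p = 0.24, and 0.40 with an adjusted p of 0.18 without replicate 1), and Col1a2 at 4.46, 4.44, 4.54 and 4.51, where no array detected it, so that no fold is given (adjusted p = 0.44 with and without replicate 1).

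In 3 genes the call turned on RES 4W replicate 1. Col27a1, a fibrillar chain of cartilage and other tissues, was at 5.31 in replicate 1 and at 6.38, 6.47 and 6.34 in the other RES 4W arrays, against 5.75, 5.07 and 5.77 in CON 4W. The change in log2 level was 0.60 (SE 0.28, adjusted p = 0.19) with replicate 1 and 0.87 (adjusted p = 0.013) without it, and its dimmer probe gave 0.00 and 0.05. Col8a1 was at 6.42 in replicate 1 and at 5.58, 5.27 and 5.53 in the others, against 6.17, 6.17 and 6.05 in CON 4W, so that replicate 1 lay above and the others below all controls. The change in log2 level was -0.43 (SE 0.21, adjusted p = 0.22) and -0.67 (adjusted p = 0.0047) without replicate 1. Col5a3, a chain of collagen V, was at 5.23, 4.85 and 5.34 in CON 4W and at 4.76, 4.62, 4.77 and 4.47 in RES 4W, where 1 array detected it (log2 fold change -0.49, adjusted p = 0.082, and -0.52 with an adjusted p of 0.043 without replicate 1). Of the other chains, Col16a1, a FACIT chain, was at 5.95, 6.46 and 5.90 in CON 4W and at 5.86, 5.49, 5.61 and 5.82 in RES 4W, without overlap (log2 fold change -0.41, adjusted p = 0.18, and -0.46 with an adjusted p of 0.10 without replicate 1). Col7a1, Col9a1, Col11a2, Col18a1 and Col23a1 had log2 fold changes between -0.10 and 0.21, or between -0.08 and 0.34 without replicate 1. Col9a2, Col11a1, Col13a1 and Col17a1 were each detected on no array of at least 1 of the groups. None of these 9 genes was called with or without that array.

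**Figure D3:**
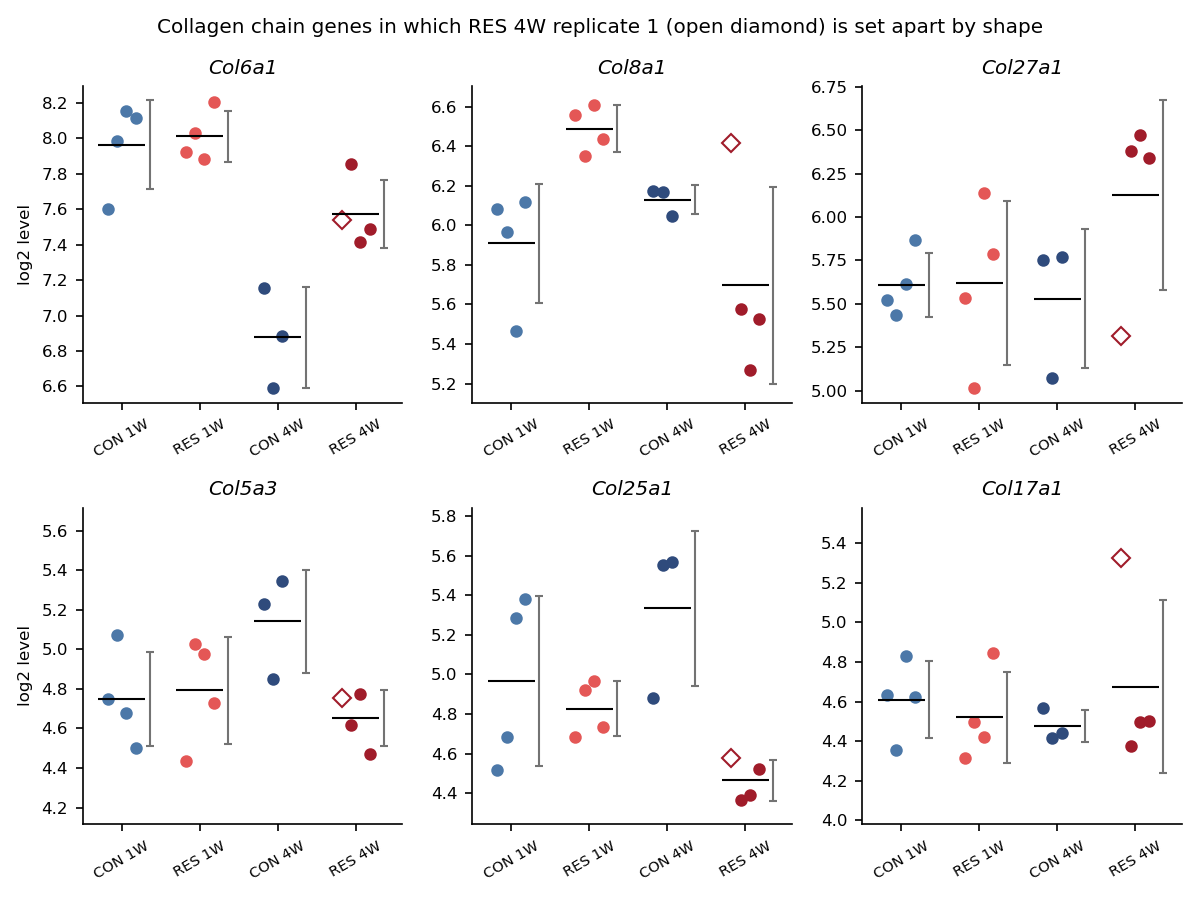
Log2 level (vertical axis) of 6 collagen chain genes by group (horizontal axis), with RES 4W replicate 1 as an open diamond. Points are arrays, black bars are group means over all arrays of the group and whiskers are the SD. Replicate 1 stands at 5.31 in Col27a1, at 6.42 in Col8a1 and at 5.32 in Col17a1, apart from the other RES 4W arrays, but within their range in Col6a1.

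The difference of the 2 restriction effects was tested as RES 4W minus CON 4W, less RES 1W minus CON 1W. These 2 effects differ both in age (7 and 4 weeks) and in length of restriction (4 and 1 weeks), which cannot be told apart. Of the 27 genes 2 were called higher, against 0.314% of all genes, and 0 lower, against 0.258%. At an unadjusted p under 0.05 the limma counts were 9 higher and 3 lower, against 7.93% and 9.45% of all genes, or 12 higher and 3 lower without RES 4W replicate 1, against 12.3% and 14.1%. Col4a1 had a difference of 0.70 (SE 0.14, adjusted p = 0.036), made of -0.54 at 4 weeks of age and 0.16 at 7 weeks. Col5a1 had a difference of 0.66 (SE 0.14, adjusted p = 0.045), made of -0.60 and 0.06. Both calls were fragile, kept with 2 and 3 of 15 arrays left out in turn. Without RES 4W replicate 1, 7 genes were called higher, against 5.7% of all genes, and 1 lower, against 7.52%. The 7 were Col4a1 (0.75, adjusted p = 0.0019), Col5a1 (0.67, adjusted p = 0.0050), Col4a2 (0.69, adjusted p = 0.012), Col15a1 (0.72, adjusted p = 0.014), Col14a1 (0.78, adjusted p = 0.022), Col1a1 (0.90, adjusted p = 0.039) and Col4a5 (0.71, adjusted p = 0.046). The second probe of Col4a5 gave -0.08 (adjusted p = 0.87) there and that of Col14a1 gave 0.88 (adjusted p = 0.025). The 1 was Col8a1, with a difference of -1.01 (SE 0.29, adjusted p = 0.093) over all arrays and -1.25 (SE 0.20, adjusted p = 0.00094) without replicate 1. It had been higher than control in every RES 1W array, and was lower in 3 of the 4 RES 4W arrays.

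Chains that share a trimer or a family were compared within each array, as 9 pairs in each comparison. No pair passed after adjustment over the 9 pairs: the smallest adjusted p was 0.19 for the ages, 0.26 for RES 1W and 0.13 for RES 4W, or 0.30 without RES 4W replicate 1 (exact permutation tests, two-sided, whose smallest possible unadjusted p is 0.029). A lone pair at that smallest p cannot pass over 9 pairs, and several would have to reach it together. Without replicate 1 no pair could pass. The tests therefore cannot show that partner chains changed alike. With age, Col4a1 less Col4a4 gave a change of -0.68 (SE 0.15, exact p = 0.029) and Col1a1 less Col1a2 one of -1.22 (SE 0.37, exact p = 0.057), a pair in which Col1a2 lies near the floor. In RES 1W, Col4a1 less Col4a3 gave -0.40 (SE 0.07, exact p = 0.029), with no overlap between the groups. In RES 4W, Col4a1 less Col4a4 gave 0.38 (SE 0.11, exact p = 0.029) and 0.36 without replicate 1 (exact p = 0.10, the smallest possible there). Col1a1 less Col1a2 had the same exact p-values in RES 4W, but no RES 4W array detected Col1a2, so no size is given. Col4a1 less Col4a2 gave 0.05 (SE 0.08) with age, -0.01 (SE 0.11) in RES 1W and 0.07 (SE 0.04) in RES 4W, or 0.05 without replicate 1. Col6a1 less Col6a2 gave 0.21 (SE 0.14) in RES 1W, and no CON 4W array detected Col6a2.

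**Figure D4:**
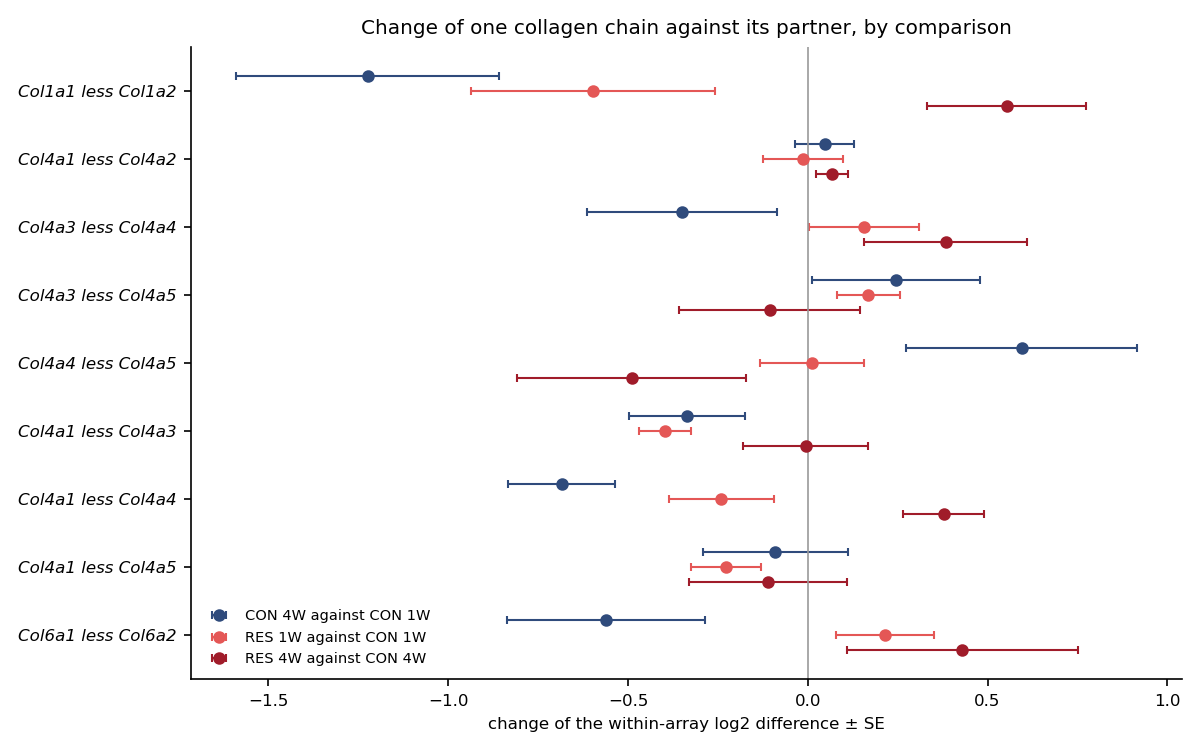
Change, with its SE (horizontal axis), of the within-array log2 difference between the chains of each of 9 pairs (vertical axis), in the 3 comparisons. For Col4a1 less Col4a2 all 3 points lie within 0.07 of 0, and the pairs with Col1a2 or Col6a2 hold a dim probe.

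Genes that make, trim, bind or break down collagen were read from 6 lists. Of all genes, 2.06% were called lower and 1.37% higher with age, 1.61% and 1.79% in RES 1W, and 3.15% and 2.68% in RES 4W. Without RES 4W replicate 1 the shares for RES 4W were 11.8% lower and 9.71% higher. No list was tested as a set. Of 18 tested synthesis genes 1 fell with age: Serpinh1, the chaperone of procollagen, by 0.83 (SE 0.13, adjusted p = 0.0024). In RES 1W its log2 fold change was -0.46 (adjusted p = 0.058). P3h2, which hydroxylates prolines of collagen IV, rose in RES 1W by 0.40 (adjusted p = 0.036) and in RES 4W by 0.37 (adjusted p = 0.048, and 0.027 without replicate 1), and Colgalt1, which adds galactose to collagen, fell in RES 4W by 0.47 (adjusted p = 0.049, and 0.0077 without replicate 1). Without that array 3 more synthesis genes were called in RES 4W: P4ha1, a collagen prolyl 4-hydroxylase, at -0.88 (adjusted p = 0.0019), Ppib, a prolyl isomerase, at -0.38 (adjusted p = 0.037), and Sec23a, a coat protein of vesicles that leave the endoplasmic reticulum, at 0.46 (adjusted p = 0.027). Of 7 trimming and cross-linking genes 1 fell with age, Lox, the lysyl oxidase that cross-links fibrils, by 0.98 (SE 0.20, adjusted p = 0.015), and 0 were called in either restriction comparison over all arrays. Without RES 4W replicate 1, 3 were higher in RES 4W: Lox by 0.64 (adjusted p = 0.023), and the enhancers of procollagen cleavage Pcolce by 0.36 (adjusted p = 0.028) and Pcolce2 by 0.35 (adjusted p = 0.041). The list medians with age were -0.06 for synthesis and -0.34 for trimming and cross-linking.

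Of 12 breakdown genes 1 fell in each comparison. Mmp2, a gelatinase that also cleaves collagen IV, fell with age by 0.70 (SE 0.16, adjusted p = 0.027), Mmp13, a collagenase, fell in RES 1W by 0.91 (SE 0.14, adjusted p = 0.0020), and Timp3, an inhibitor of such enzymes, fell in RES 4W by 0.62 (SE 0.12, adjusted p = 0.014, and 6.5e-05 without replicate 1). Without that array Mmp13 was called in RES 4W too (-0.43, adjusted p = 0.044). That list also holds Mfap4, a microfibril protein. Of 4 tested collagen receptors 0 were called in any comparison, with or without RES 4W replicate 1. Of 8 collagen-binding proteins 1 was called over all arrays, Sparc, which binds collagen IV and fibrillar chains and fell with age by 1.30 (SE 0.18, adjusted p = 0.00063). Sparc had log2 fold changes of -0.36 in RES 1W (adjusted p = 0.34) and 0.58 in RES 4W (adjusted p = 0.064, and 0.032 without replicate 1). Of 11 matrix-inducing signal genes, Pdgfb fell in RES 1W by 0.59 (adjusted p = 0.034) and Pdgfa in RES 4W by 0.46 (adjusted p = 0.026, and 0.0036 without replicate 1), both growth factors for mesenchymal cells.

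Markers of kidney cell types were read beside these results, with the shares of all genes called as given above for the collagen-related lists. Where the linear levels of a list are summed, the brightest markers weigh most. Of 8 tested fibroblast and pericyte markers 0 were called in any comparison over all arrays, with median log2 fold changes of -0.26 with age, -0.03 in RES 1W and -0.01 in RES 4W. Without RES 4W replicate 1 the last was -0.03, and Vim was higher in RES 4W by 0.38 (adjusted p = 0.044). Their summed linear level ran from 866 to 1025 in CON 1W, 910 to 1048 in RES 1W, 797 to 825 in CON 4W and 801 to 883 in RES 4W (823 to 883 without replicate 1), so that CON 4W lay below CON 1W while RES 1W overlapped with it. Of 5 smooth muscle markers 0 were called over all arrays, with medians of -0.22, 0.06 and 0.21. Without RES 4W replicate 1 the RES 4W median was 0.33, and Des (0.55, adjusted p = 0.0091) and Acta2 (0.33, adjusted p = 0.046) were higher. The smooth muscle sum was 4118 to 4905 in CON 1W and 3542 to 3774 in CON 4W, lower with no overlap, and in RES 4W it was 3258 to 4625, or 3999 to 4625 without replicate 1.

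Of 9 endothelial markers 2 fell with age, Egfl7 and Tek, with a median of -0.26, and 2 rose in RES 4W, Tie1 by 0.82 (adjusted p = 0.0099, and 0.00013 without replicate 1) and Pecam1 by 0.55 (adjusted p = 0.027, and 0.0048 without it), with a median of 0.19, or 0.22 without it. The endothelial sum was 8488 to 9482 in CON 1W, 7327 to 7828 in CON 4W and 8139 to 8944 in RES 4W, lowest in CON 4W without overlap. Of 5 tested podocyte markers 1 fell with age, Cdkn1c by 0.46 (adjusted p = 0.044), and 1 rose in RES 1W, Ptpro by 0.59 (adjusted p = 0.025). Without RES 4W replicate 1, Synpo was higher in RES 4W by 0.39 (adjusted p = 0.021). The podocyte sum was 5002 to 5637 in CON 1W, 6185 to 6729 in RES 1W, 4140 to 4647 in CON 4W and 4891 to 5365 in RES 4W, with or without replicate 1. The podocyte sum was thus lower at 7 weeks than at 4 weeks of age in the controls, and higher in the restricted mice than in their controls at both ages, without overlap. With age, however, the median log2 fold change of the 5 markers was 0.00, and 3 of 5 were positive. The median was 0.29 in RES 1W and 0.16 in RES 4W, or 0.23 without replicate 1.

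Other sums moved with the groups as well. The proximal tubule sum was lower in RES 1W (37364 to 42216) than in CON 1W (43412 to 49029), and lower in RES 4W (42727 to 45126) than in CON 4W (46087 to 47350). Of its 7 markers, Slc22a6 was called lower in RES 1W, by 0.49 (adjusted p = 0.011). In RES 4W 2 were called higher over all arrays and 0 lower: Slc5a2 rose by 0.96 (adjusted p = 0.0097) and Slc5a12 by 0.62 (adjusted p = 0.014). Without replicate 1 these 2 stayed higher and Slc22a6 was called lower (-0.36, adjusted p = 0.022). The macrophage sum was lower in RES 1W (233 to 259) than in CON 1W (274 to 307), and in RES 4W (320 to 384, or 353 to 384 without replicate 1) it overlapped with CON 4W (279 to 342) only through replicate 1. The collecting duct sum, which holds Aqp2, the water channel of that segment, was higher in RES 1W (3725 to 4193) than in CON 1W (2815 to 3343), and higher in RES 4W (3323 to 4565) than in CON 4W (2942 to 3165). In RES 1W Aqp2 rose by 1.46 (adjusted p = 0.0020) and Aqp3 by 0.50 (adjusted p = 0.0049), while the other 3 markers had negative log2 fold changes. In RES 4W only Aqp2 was called, with a rise of 2.11 (adjusted p = 0.00070), or 2.40 without replicate 1 (adjusted p = 1.6e-06). The red blood cell sum was lower in CON 4W (24106 to 26854) than in CON 1W (27595 to 30335), with 0 of its 3 tested markers called. The sum of the thick ascending limb and distal tubule overlapped between RES 1W (32149 to 35872) and CON 1W (29756 to 32997). There Slc12a1 rose by 0.56 (adjusted p = 0.0084) and Pvalb fell by 0.71 (adjusted p = 0.011) in RES 1W. The part of any of these cell types in the collagen results was not tested.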

How the data were processed

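Kidney RNA of 15 mice was hybridised to Illumina MouseWG-6 arrays. The deposited intensity values had been background-subtracted and quantile-normalized by the authors in GenomeStudio 1.0.2, and 34.9% are at or below 0. Each deposited detection p-value sets an intensity against the negative control beads of its array. The authors' processed log2 values are the log2 of the same intensities, as deposited, missing where the intensity is under 5.

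Log2 levels were computed from the intensities and detection p-values by neqc (limma 3.58.1, R 4.3.3; normexp, offset 16, quantile), a further correction of values already background-subtracted. Probes with a detection p under 0.05 on at least 3 arrays were tested (19027 of 45281), and 16351 of them had 1 gene symbol. Symbols came from the array annotation, updated by gene ID. Of several tested probes of a gene the brightest on average was taken. One linear model over the 4 groups (lmFit, eBayes) gave two-sided p-values, adjusted by the Benjamini-Hochberg method over all tested probes of a comparison. Single differences were also tested by exact permutation (70 regroupings of 4 against 4 arrays, 35 of 4 against 3).

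The genes and lists were chosen with earlier results of these data known. Every collagen gene with a tested probe was named, those called and the collagen I, IV and VI chains with every array's value, and of other lists up to 4 genes with the smallest adjusted p. On simulated data for CON 4W against CON 1W over 19027 probes, 27% of changes of 0.5 and 90% of changes of 1 on the log2 scale were recovered. Of the 130 calls made there, 13 were false. The replicate numbers did not pair the arrays. Promoter sequences are those of RefSeq (GRCm38.p6), and 23 of the 27 genes had one. Array batches are not given in the sources used here. Among the deposited intensity columns, that of RES 4W replicate 1 stands after the CON 4W columns and apart from the other RES 4W columns. What this order reflects is not stated and was not tested. For arrays, their number limits the precision.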

Additional observations from a re-analysis of the deposited data

Results flagged for a closer look

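Among 81 gene-by-group sets of 4 arrays, 5 held an array far from the other 3, and chance alone gives about 1 in 20. RES 4W replicate 1 was that array in 2 of them: Col27a1 was at a log2 level of 5.31 there against 6.34 to 6.47 in the other RES 4W arrays, and Col17a1, a transmembrane collagen of hemidesmosomes, was at 5.32 against 4.37 to 4.50. Col18a1 was at 10.62 in RES 4W replicate 2 against 10.84 to 10.87. Near the detection floor, Col11a1 was at 5.00 in CON 1W replicate 3 against 4.45 to 4.49, and Col7a1, the anchoring fibril collagen, was at 4.96 in CON 1W replicate 4 against 5.41 to 5.47.

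The effects of 4 weeks and of 1 week of restriction were called different for 2 genes, in limma's test of the difference itself. These were Col4a1, by 0.70 on the log2 scale (adjusted p = 0.036), and Col5a1, by 0.66 (adjusted p = 0.045). Age and length of restriction cannot be told apart in this test. The calls were kept with only 2 of 15 arrays left out in turn for Col4a1 and 3 of 15 for Col5a1.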

How the results depend on the processing

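Of 681 alternative values of the 24 single calls, 508 kept the call, 173 lost it and 0 reversed direction. The genes that fell with age numbered 7 to 10 with each array left out in turn, and 2 with the methods' t-test (11 at an unadjusted p under 0.05, against 17.2% of all genes). The median log2 fold change with age of the collagen genes was -0.16 with an offset of 50 and -0.22 with the mean of a gene's probes. It was -0.36 to -0.22 with arrays left out. Over other sets of collagen genes, it was -0.59 with the authors' processed values, -0.10 with no filter on dim probes and -0.58 with a stricter filter. In the main fit it was -0.52 over the 15 genes detected on every array and -0.08 over the 12 dimmer ones, so these medians also differ by the genes they hold. In RES 1W, 3 to 6 genes were lower (3 without CON 1W replicate 2) and 0 to 1 higher with arrays left out, 1 was higher with array weights, and 1 was lower with the methods' t-test and 2 at the methods' thresholds (an adjusted p under 0.01 and 1.5-fold). The median of the collagen genes in RES 1W was -0.076 with an offset of 50 and -0.20 to -0.052 with arrays left out. Over the other sets of collagen genes, it was -0.33 with the authors' processed values, -0.018 with no filter and -0.34 with a stricter filter.

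In RES 4W, 0 to 3 genes were lower and 0 to 2 higher with arrays left out (0 and 0 without CON 4W replicate 2), and array weights, which gave replicate 1 a weight of 0.22, called 3 lower and 2 higher. With no filter the lower count was 0, since Col25a1 was tested and lost its call. The lower count was also 0 under a stricter filter, and in the log2 values that the authors had processed. In these latter settings Col25a1 was not among the genes tested, so they do not bear on its call. Limma on only the groups compared, the methods' ANOVA, the methods' t-test and the methods' thresholds called 0 lower and 0 higher. The median was 0.062 with the mean of a gene's probes, and 0.051 to 0.12 with arrays left out. The genes called for the difference of the restriction effects were 0 to 8 with arrays left out (8 when RES 4W replicate 1 was left out, 0 when CON 1W replicate 2 was), 8 with array weights, 1 without further background correction, 1 with no filter, 1 with the methods' ANOVA and 0 at the methods' thresholds.

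With the replicate number as a block (replicate block), 0 genes were higher in RES 4W and 0 were called for the difference of the restriction effects. The numbers do not pair the arrays: deviations of same-numbered arrays correlated at -0.10 to 0.19. With an array left out, the pair tests of RES 1W called 0 pairs, an outcome that the few regroupings make nearly certain. Those of the other comparisons cannot reach an exact p under 0.05 where an array of theirs is missing. The cause of these shifts was not tested. Where a group did not detect a chain, the dim level allows only a bound, and the medians hold the fitted values of such chains.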
